A study of Homo sapiens with 18 samples.

Results

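SnoRNA host genes carry small nucleolar RNAs inside their introns, and the 9 described here are noncoding hosts: SNHG3, SNHG12, SNHG8, SNHG15, SNHG1, GAS5, SNHG5, SNHG16 and ZFAS1. They were chosen by position, as every row of the count table that overlaps a set hg19 window around each gene. The genes were proposed with the fold changes of the same 6 libraries already known, so all values and calls below describe these genes and test nothing about them as a group. The windows held 11 of the 12123 regions in the table, 2 each for SNHG3 and SNHG1 and 1 for each of the other 7 genes.

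The libraries came from Rh30, an alveolar rhabdomyosarcoma cell line, in which the fusion transcription factor PAX3-FOXO1 carries an FKBP tag. The small molecule dTAG47 directs proteins with that tag to degradation. All 3 groups carried the tagged fusion. Controls received the solvent DMSO, and the treated groups 500 nM dTAG47 for 2 h or for 4 h, with 2 libraries in each group, lettered A and B. Each library is a ChIP-seq of RNA polymerase II with phosphate on serine 5 of the C-terminal domain, called Ser5 Pol II here. Separate cultures are not stated for the libraries of a group, so the errors may be technical. The labels also do not say whether the cells were 1 clone, and the labelled cell type was not checked against marker genes, because no hg19 annotation was used here.

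Host gene transcripts are spliced, and the snoRNAs are cut from the introns and built into particles that guide chemical modification or cleavage of other RNAs, mostly ribosomal RNA. Box H/ACA snoRNAs guide pseudouridylation and box C/D snoRNAs guide 2′-O-methylation. Ser5-phosphorylated Pol II is the form found soon after initiation, so its ChIP signal gathers near transcription start sites. Many host genes begin with a run of C and T, the terminal oligopyrimidine tract that they share with ribosomal protein genes.

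By RefSeq (GRCh38.p14, used here for names and neighbours only), SNHG3 holds SNORA73A and SNORA73B, SNHG8 holds SNORA24, and SNHG15 holds SNORA9, all of the H/ACA class by their symbols. SNHG12 is mixed, with 3 H/ACA snoRNAs (SNORA61, SNORA44 and SNORA16A) and SNORD99 of the C/D class. C/D snoRNAs fill the others, with 8 in SNHG1, 10 in GAS5, 2 in SNHG5, 3 in SNHG16 and 3 in ZFAS1. GAS5 also holds SNORA103, and SNHG1 holds 1 snoRNA with no class in its symbol. RCC1 overlaps SNHG3, ZBTB37 and GAS5-AS1 overlap GAS5, and TRNAU1AP overlaps SNHG12. The nearest coding genes of the others are PRSS12 for SNHG8, MYO1G for SNHG15, SLC3A2 for SNHG1, SYNCRIP for SNHG5, ST6GALNAC2 for SNHG16 and ZNFX1 for ZFAS1. ChIP-seq reads carry no strand of the transcript, so signal of a host and of a gene that overlaps it or starts beside it cannot be told apart.

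RefSeq promoter sequences were matched by symbol for 8 of the 9 genes, all but SNHG15. The 6 sequences below are those of the 5 genes with a called rise and of ZFAS1, the host with the highest signal, and each shows 20 bases before the start that the table uses and 20 from it on, 5′ to 3′. The run of C and T that includes the start base is in capitals, and coordinates are GRCh38.p14.
SNHG3 (chr1:28505923-28505962, plus strand): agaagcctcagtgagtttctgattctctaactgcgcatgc
SNHG12 (chr1:28581854-28581893, minus strand): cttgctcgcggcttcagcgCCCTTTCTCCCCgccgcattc
SNHG8 (chr4:118278742-118278781, plus strand): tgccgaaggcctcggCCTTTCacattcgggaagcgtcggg
SNHG1 (chr11:62855866-62855905, minus strand): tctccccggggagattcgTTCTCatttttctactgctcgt
SNHG5 (chr6:85678714-85678753, minus strand): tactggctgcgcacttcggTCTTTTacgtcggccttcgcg
ZFAS1 (chr20:49278622-49278661, plus strand): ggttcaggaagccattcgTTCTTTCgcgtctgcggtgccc

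The run was longest in SNHG12, at 12 bases, and measured 7 in ZFAS1, 6 in SNHG5 and SNHG8 and 5 in SNHG1. In SNHG8 it ends at the start base, so most of it lies before the start. At the starts used, SNHG3 has G and no such run, and neither has GAS5 (A) or SNHG16 (G), which are not shown. The starts are in GRCh38.p14 and the regions in hg19, and whether each start lies in a measured region was not checked. C or T at the first base and at each of the next 4 was found in 3 of the 8 sequences (SNHG12, SNHG5 and ZFAS1), against 5.16% of 34943 RefSeq promoters. A looser form, C followed by 4 bases of C or T starting anywhere within 10 bases of the start on the gene's strand, was chosen after a first look and was found in 5 of 8 (SNHG8 and SNHG16 in addition), against 33.5% of all. On both strands of the 300-base promoter, TATAAA was found in SNHG1 alone, against 11.6% of all, and the E-box CACGTG in 0 of 8, against 7.23%. These letters describe the windows searched and show no binding.

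Whole-table depth ranged from 962251 counts in 4 h library B to 1792013 in DMSO library A, and counts are compared below as CPM with TMM scaling. The 3 regions with the highest counts of the table took 1.77% and 2.61% of the counts in DMSO, 2.61% and 3.21% at 2 h and 2.61% and 4.17% at 4 h. That share was higher in library B than in library A of each group. It was also higher in each treated library than in the DMSO library of the same letter. The share in 4 h library A was no higher than that in DMSO library B. Beside the fit with it as a covariate, given below, its part in the results was not tested. All regions are 400 bases long, so length plays no part when levels are set side by side between genes. Other differences between places in the genome, such as copy number, were not corrected for. The order of levels below therefore describes counts only.

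In DMSO every one of the 11 regions had more signal than at least 81.4% of the table. ZFAS1, a host that lies beside ZNFX1, had the highest level, 385 ± 50.3 CPM (SD, n = 2 for this and all means below), which ranks 78 of 12123. SNHG12 followed with 274 ± 7.22 CPM, and its libraries did not overlap those of ZFAS1. The higher-numbered SNHG3 region (222 ± 19.9 CPM) and SNHG5 (221 ± 16.0 CPM) overlapped each other, and GAS5 came next with 185 ± 8.76 CPM. SNHG15 (154 ± 15.7 CPM) and SNHG8 (142 ± 10.8 CPM) overlapped, as did SNHG16 (128 ± 1.35 CPM) and the lower-numbered SNHG3 region. The SNHG1 regions were lowest and overlapped, with 105 ± 3.05 and 105 ± 8.14 CPM.

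**Figure D1:**
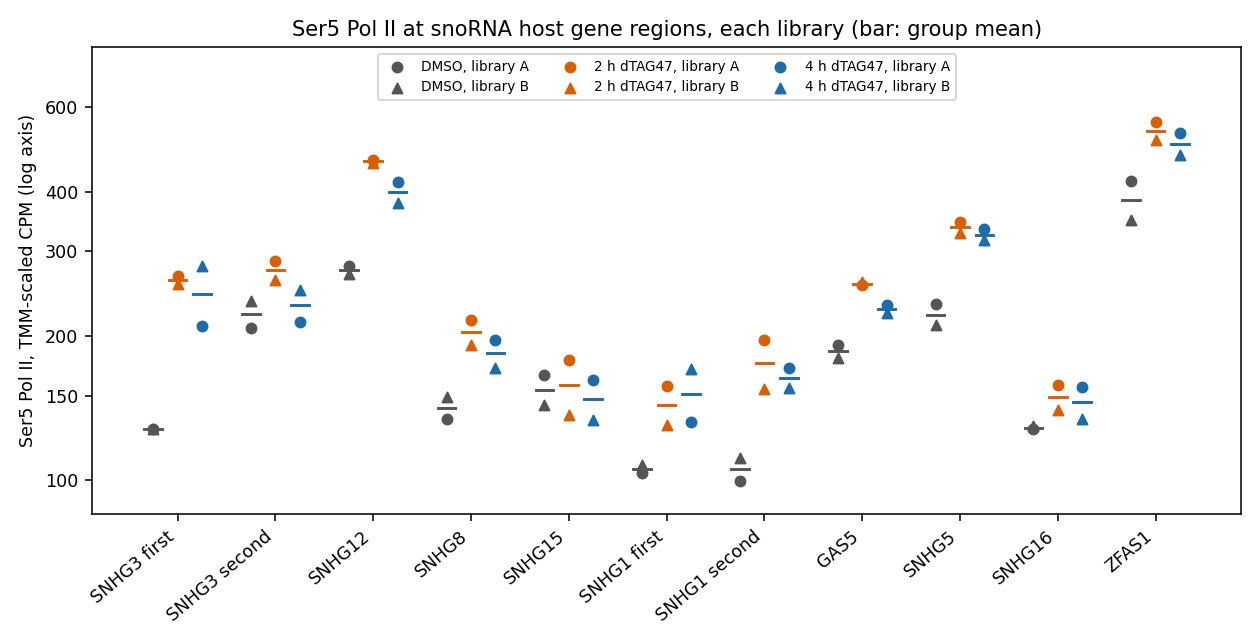
Ser5 Pol II signal in TMM-scaled CPM (log axis) at the 11 host gene regions, with circles for library A, triangles for library B and a bar for the mean of each group ("first" is the lower-numbered region of a window with a pair). ZFAS1 and SNHG12 are highest in all 3 groups, and both libraries at 2 h lie above both DMSO libraries in every region but SNHG15.

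The first comparison asked how the host genes stood after 2 h of dTAG47. In 11 of 11 regions the log2 fold change was above 0, with a median of 0.48, against a median of -0.01 over the whole table, where 48.4% of regions were above 0. With total count scaling 10 of 11 were above 0, SNHG15 being the exception. Called rises were 5 of 11, at SNHG3, SNHG12, SNHG1, SNHG5 and SNHG8 (adjusted p under 0.05 over the whole table in edgeR's quasi-likelihood fit), where 2.22% of all regions were called as rises. No member was called as a fall, against 0.396% of all regions. Both 2 h libraries lay above both DMSO libraries in 10 of 11 regions, against 21.9% of all regions. Since the genes were proposed with this contrast known, nothing is read from these shares.

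After 4 h, 10 of 11 log2 fold changes were above 0, with a median of 0.39 against -0.01 over the table, and with total count scaling 9 of 11 were. Called rises were 4 of 11, at SNHG3, SNHG12, SNHG1 and SNHG5, against 1.52% of all regions, and called falls were 0, against 0.487%. Both 4 h libraries lay above both DMSO libraries in 9 of 11 regions, against 20.2% of all. The comparisons at 2 h and 4 h share their DMSO libraries, so their values are given side by side and not as 2 separate results.

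**Figure D2:**
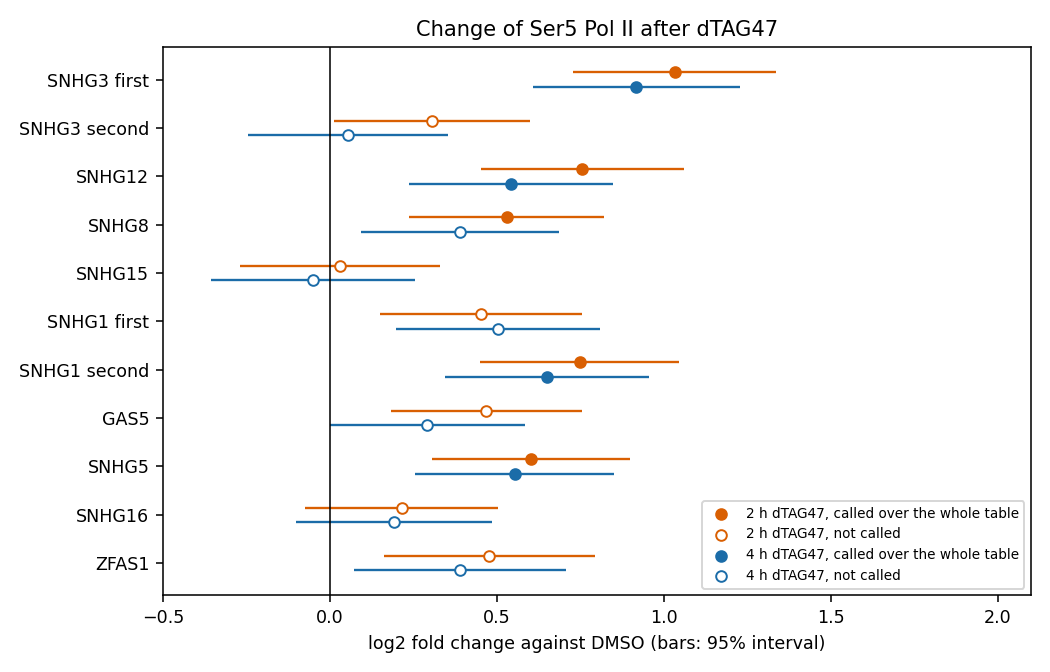
Log2 fold change of each host gene region against DMSO at 2 h and 4 h of dTAG47, with 95% intervals, filled points being regions called over the whole table. The lower-numbered SNHG3 region has the largest change of the 11 at both times, 1.03 and 0.92, and SNHG15 lies at 0.03 and -0.05.

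The hosts of H/ACA snoRNAs held both the largest and the smallest changes. SNHG3 carries the SNORA73 snoRNAs, also called U17, which act in the processing of ribosomal RNA. Its lower-numbered region, at chr1:28832384-28832784, had 128.0 CPM in both DMSO libraries, 267 and 257 CPM in 2 h libraries A and B, and 209.8 and 279 CPM in 4 h libraries A and B. All 4 treated libraries stood well above both DMSO libraries, and the 4 h libraries were farther apart than those at 2 h. The signal rose 2.05-fold at 2 h (log2 fold change 1.03, SE 0.15, 95% interval 0.73 to 1.34) and 1.89-fold at 4 h (0.92, SE 0.15, 0.61 to 1.23). By fold change it ranked 37 of 12123 regions at 2 h and 53 at 4 h, and the call of this region held in 14 of 14 alternatives at each time. Of the 14, here and below, the fit with no low-count filter repeats the main fit, since the filter removed 0 regions. Over the alternatives the 4 h value ran from 0.70 with the covariate to 1.12 without 4 h library A. The 2 h value ran from 0.90 to 1.07.

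The other SNHG3 region, 4403 bases further on at chr1:28836787-28837187, had 208 and 236 CPM in DMSO, 286 and 261 CPM at 2 h and 214 and 249 CPM at 4 h. Its 4 h libraries overlapped those of DMSO, and it was not called at either time (0.31, 95% interval 0.01 to 0.60, and 0.05, -0.25 to 0.35). With a block by library letter it was called at 2 h (0.31). The 4 h value was below 0 without DMSO library A (-0.04), without 4 h library B (-0.05), with total count scaling (-0.0013) and with the covariate (-0.08). The regions of this window can be compared inside a library, where scaling has no part. The count of the lower-numbered region divided by that of the other was 0.616 and 0.542 in DMSO, 0.932 and 0.983 at 2 h, and at 4 h 0.982 and 1.12. The regions were thus unequal in DMSO and near parity after dTAG47, with a mean log2 ratio 0.73 higher at 2 h and 0.86 higher at 4 h. With the counts of both regions summed, SNHG3 was called at 2 h (0.62) and not at 4 h (0.44). An exact permutation test of the ratio with 2 against 2 libraries cannot go below a two-sided p = 0.333, which is the value it gave at each time.

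SNHG12, which holds snoRNAs of both classes, was measured at chr1:28908133-28908533. It had 279 and 269 CPM in DMSO, 466 and 459 CPM at 2 h and 418 and 379 CPM at 4 h, with no overlap between DMSO and either time and with 4 h below 2 h. The signal rose 1.69-fold at 2 h (0.76, SE 0.15, 95% interval 0.45 to 1.06) and 1.46-fold at 4 h (0.54, SE 0.15, 0.24 to 0.85). The 2 h call held in 14 of 14 alternatives. The 4 h call held in 4 of 14 and was lost whenever any 1 library was left out, at log2 fold changes from 0.47 without 4 h library A to 0.61 without 4 h library B.

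SNHG8, the host of SNORA24, at chr4:119199791-119200191, had 134 and 149 CPM in DMSO, 216 and 192 CPM at 2 h and 196 and 172 CPM at 4 h. Treated and DMSO libraries did not overlap. The signal rose 1.44-fold at 2 h (0.53, SE 0.14, 95% interval 0.24 to 0.82), and at 4 h the fold change of 0.39 (0.09 to 0.69) was not called. With a block by library letter the 4 h value was called (0.39). The 2 h call was lost without DMSO library A (0.45), 2 h library A (0.44) or 2 h library B (0.62), with total count scaling (0.47) and with DESeq2 (0.53).

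SNHG15, the host of SNORA9, was measured at chr7:45025991-45026391. Its values were 165 and 143 CPM in DMSO, 178 and 137 CPM at 2 h and 162 and 133 CPM at 4 h, and the 3 groups overlapped. The log2 fold changes were 0.03 at 2 h (95% interval -0.27 to 0.33) and -0.05 at 4 h (-0.36 to 0.25), with no call, and their signs were not stable. The 2 h value was -0.03 with total count scaling, -0.06 without DMSO library B and -0.18 without 2 h library A. The 4 h value was 0.06 without DMSO library A, 0.07 without 4 h library B and 0.22 with the covariate. Over all alternatives the 2 h value ran from -0.18 to 0.21. The interval at 2 h ends at 0.33. The lower bounds of the lower-numbered SNHG3 region (0.73), SNHG12 (0.45) and the higher-numbered SNHG1 region (0.45) lie above that. These genes were chosen with their values known, and differences between members were not tested.

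Among the hosts of C/D snoRNAs, SNHG1 carries SNORD22 and SNORD25 to SNORD31 and lies beside SLC3A2, which encodes an amino acid transporter subunit. Its higher-numbered region, at chr11:62623154-62623554, had 99.3 and 111 CPM in DMSO, 196 and 155 CPM at 2 h and 171 and 156 CPM at 4 h. All 4 treated libraries were above DMSO, with a wide gap between the 2 h libraries. The signal rose 1.68-fold at 2 h (0.75, SE 0.15, 95% interval 0.45 to 1.05) and 1.57-fold at 4 h (0.65, SE 0.15, 0.34 to 0.95). The call was lost without 2 h library A at 2 h (0.56), and at 4 h without DMSO library A (0.57) or 4 h library A (0.57) and with DESeq2 (0.65).

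The lower-numbered SNHG1 region, at chr11:62618590-62618990, had 103 and 107 CPM in DMSO, 157 and 130.0 CPM at 2 h and 132 and 170.5 CPM at 4 h. The treated libraries were all higher than DMSO but far apart, and neither time was called (0.45, 95% interval 0.15 to 0.75, and 0.50, 0.20 to 0.81). With a block by library letter both times were called (0.45 and 0.49). Without 4 h library A, the 4 h value was called, at 0.70. Within a library, the higher-numbered region divided by the other gave 0.963 and 1.03 in DMSO, 1.25 and 1.19 at 2 h, and at 4 h 1.30 and 0.912. The 2 h ratios lay above DMSO (exact two-sided permutation p = 0.333, the smallest possible), while the 4 h ratios lay on both sides of it (exact p = 1).

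**Figure D3:**
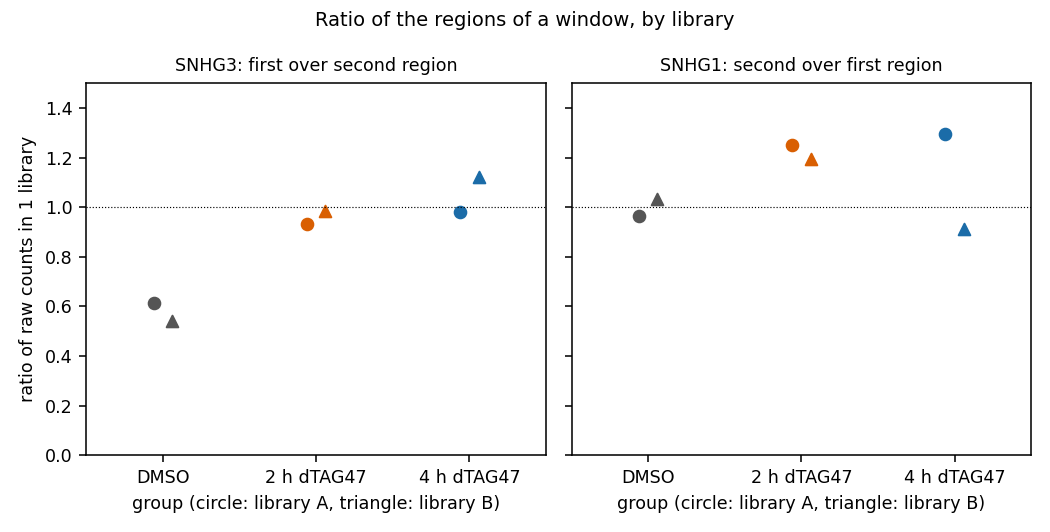
Ratio of raw counts of the paired regions in the SNHG3 window (lower-numbered, "first", over higher-numbered, "second") and the SNHG1 window (second over first), 1 point per library. The SNHG3 ratio goes from 0.542 and 0.616 in DMSO to between 0.932 and 1.12 after dTAG47, and the SNHG1 ratio at 4 h spans the DMSO values.

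SNHG5 hosts SNORD50A and SNORD50B, and its region lies at chr6:86388203-86388603. The values were 233 and 210.1 CPM in DMSO, 345 and 328 CPM at 2 h and 333 and 316 CPM at 4 h. The groups at 2 h and 4 h stood close together and clear of DMSO. The signal rose 1.52-fold at 2 h (0.60, SE 0.15, 95% interval 0.31 to 0.90) and 1.47-fold at 4 h (0.55, SE 0.15, 0.25 to 0.85). The 2 h call was lost without DMSO library B (0.54), 2 h library A (0.57) or 2 h library B (0.64), and the 4 h call held in 5 of 14 alternatives and was lost whenever any 1 library was left out (0.50 to 0.63).

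GAS5 is named for its rise in growth-arrested cells, and holds more snoRNAs than any of the other 8 hosts. At chr1:173836869-173837269 it had 192 and 179 CPM in DMSO, 256 and 258 CPM at 2 h and 231 and 223 CPM at 4 h. The libraries of each group were close and the groups did not overlap, yet the fold changes were not called (0.47, 95% interval 0.18 to 0.76, at 2 h and 0.29, -0.00040 to 0.58, at 4 h). The 2 h value became a call in 5 of 14 alternatives, among them the fits without 4 h library A (0.47) and without 4 h library B (0.47).

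ZFAS1, host of SNORD12, SNORD12B and SNORD12C, at chr20:47895011-47895411, had 420.1 and 349 CPM in DMSO, 560.0 and 512 CPM at 2 h and 531 and 476 CPM at 4 h. Every treated library was above both DMSO libraries, which were themselves far apart. The fold changes of 0.48 at 2 h (95% interval 0.16 to 0.79) and 0.39 at 4 h (0.07 to 0.71) were not called. Both were called in 2 of 14 alternatives. These were the share of the 3 highest regions as a covariate (0.59 and 0.57) and a block by library letter (0.48 and 0.39).

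SNHG16, which holds SNORD1A, SNORD1B and SNORD1C, at chr17:74553702-74554102, had 127 and 129 CPM in DMSO, 158 and 139.9 CPM at 2 h and 156 and 134 CPM at 4 h. The treated libraries were above DMSO, those lettered B only by a little. Its fold changes of 0.22 at 2 h (95% interval -0.07 to 0.50) and 0.19 at 4 h (-0.10 to 0.48) were called under 0 of 14 alternatives at each time.

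The number of members called moved with single libraries, and so did the share of all regions called as rises. At 2 h, 2 members were called without 2 h library A, where 1.15% of all regions were, and 3 without 2 h library B, where 1.05% were. At 4 h, 1 member was called without DMSO library A (0.734% of all regions) and 2 without any other single library (0.767% to 2.59% of all). DESeq2 called 4 members at 2 h (0.792% of all regions) and 1 at 4 h (0.437%), the lower-numbered SNHG3 region. With the share of the 3 highest regions as a covariate, 7 members were called at 2 h, with 364 rises over all regions against 269, and 5 at 4 h, with 191 against 184. A block by library letter gave 9 members at 2 h (5.19% of all regions) and 7 at 4 h (4.45%). The labels do not say what a letter shares.

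The 4 h libraries were also set directly against those at 2 h. The genes were proposed with the values of these 2 h libraries known, so nothing is read from the shares below. Log2 fold changes were below 0 in 10 of 11 regions, with a median of -0.10, against 50.5% of all regions and a median of -0.0028 over the table. They ran from -0.25 at the higher-numbered SNHG3 region to 0.05 at the lower-numbered SNHG1 region. Without 2 h library A, 4 of 11 were above 0 (SNHG15, SNHG16 and both SNHG1 regions), and without 4 h library A the lower-numbered SNHG3 region was at 0.09. The lower-numbered SNHG1 region fell below 0 without 2 h library B (-0.07), without 4 h library B (-0.12) and with the covariate (-0.01). Both 4 h libraries lay below both 2 h libraries in 3 of 11 regions, against 16.4% of all regions. These were SNHG12 (-0.21, 95% interval -0.51 to 0.09), GAS5 (-0.18, -0.47 to 0.11) and the higher-numbered SNHG3 region (-0.25, -0.55 to 0.05). In edgeR 0 members and 0.0% of the table were called, with 0 members and 396 regions at an unadjusted p under 0.05. DESeq2 also called 0, with 0 members and 33 regions under that level. Every interval of the 11 regions covered 0, which does not show that the times are alike.

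The surroundings of the host genes differed. SNHG3 and SNHG12 lie 75.7 kb apart on chromosome 1, and the 3 regions between their windows, at chr1:28842214-28842614, chr1:28844697-28845097 and chr1:28879416-28879816, had log2 fold changes of 0.25 (SE 0.15), -0.02 (SE 0.15) and 0.09 (SE 0.16) at 2 h, none called. On the other side of SNHG12, 67.0 kb away, the region at chr1:28975143-28975543 rose by 1.46 (SE 0.17) at 2 h and 1.24 (SE 0.17) at 4 h. The nearest region below SNHG1, 9.71 kb away at chr11:62608878-62609278, rose by 1.37 (SE 0.16) at 2 h and 1.15 (SE 0.16) at 4 h, from 305 ± 11.2 to 789 ± 22.1 CPM at 2 h. On the far side of SNHG1, the region 25.3 kb away at chr11:62648455-62648855 had -0.07 (SE 0.14). The 1 region within 100 kb of SNHG8 had -0.21 (SE 0.16) at 2 h and the 1 near SNHG15 had -0.03 (SE 0.16). Medians at 2 h were -0.05 for the 2 regions near SNHG5, -0.02 for the 4 near ZFAS1, 0.26 for the 2 near GAS5 and 0.16 for the 2 near SNHG16, none called. The 4 near ZFAS1 ran from -0.20 to 0.38, the highest being 11.8 kb away. Near GAS5, the region 5.39 kb away had 0.39 (SE 0.15) at 2 h and 0.30 (SE 0.15) at 4 h, against 0.47 and 0.29 in GAS5. Near SNHG16, the region 9.73 kb away at chr17:74563431-74563831 had 0.27 (SE 0.15) at 2 h and 0.33 (SE 0.15) at 4 h, above the 0.22 and 0.19 of SNHG16 itself by less than 1 SE.

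**Figure D4:**
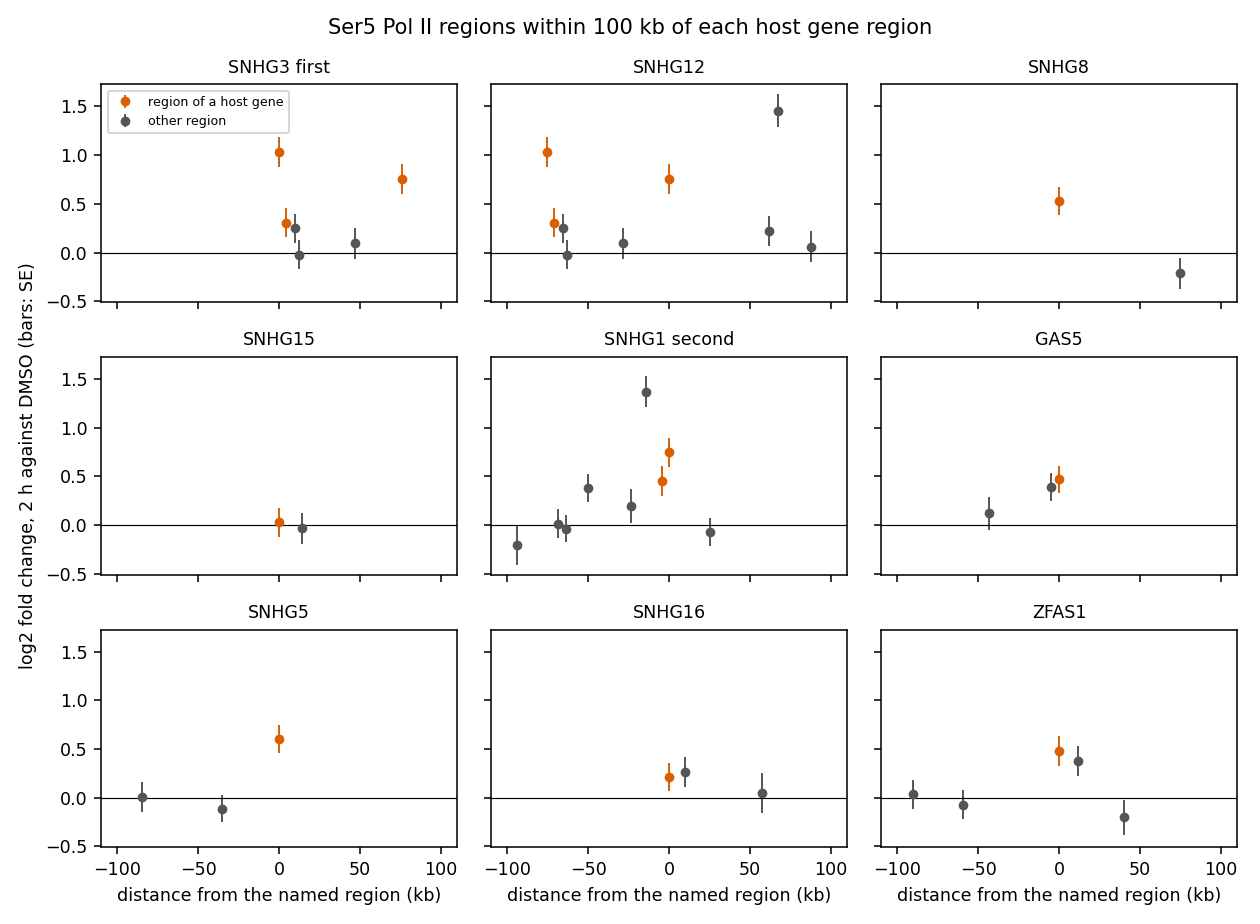
Log2 fold change at 2 h against DMSO (bars, SE) of all table regions within 100 kb of each host gene region, by distance in kb, host gene regions in orange. The tall grey points stand 67.0 kb from SNHG12 (1.46) and next to SNHG1 (1.37). The grey points around SNHG8, SNHG5 and ZFAS1 run from -0.21 to 0.38.

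The window edges decided membership in a few places. Closest outside were a region 26 bases beyond the ZFAS1 window, at chr20:47906826-47907226, with 0.38 at 2 h and 0.31 at 4 h, and a region 120 bases outside the GAS5 window, at chr1:173831480-173831880, with 0.39 and 0.30. Closest inside were the lower-numbered SNHG1 region, 90 bases from its edge (0.45 and 0.50), and the higher-numbered SNHG3 region, 313 bases from its edge (0.31 and 0.05).

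The profile of the host genes over the 6 libraries was taken as the mean of the standardised log2 CPM of 1 region per gene, that with the highest mean in DMSO. For SNHG3 this was the higher-numbered region, and for SNHG1 the lower-numbered one (105.3 against 105.1 CPM), neither of them called. A region that is part of the profile is compared partly with itself. Among the members themselves, Pearson's r with this profile ran from 0.30 for SNHG15 to 0.97 for the higher-numbered SNHG1 region. Among regions outside the windows with a mean of at least 50 counts, the 5 most like it lay at chr5:162864492-162864892 (r = 0.99), chr11:64889545-64889945 (0.99), chr17:40118733-40119133 (0.99), chr20:61086948-61087348 (0.99) and chr6:28303552-28303952 (0.99). Their log2 fold changes ran from 0.40 to 0.56 at 2 h and from 0.27 to 0.44 at 4 h. With 6 libraries and so many regions searched, such values of r are a description only.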

How the data were processed

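The authors deposited a table of raw read counts for 12123 regions, with 1 column for each of the 6 Ser5 Pol II libraries. The other 12 of the 18 samples, made with other antibodies, were not analysed here. Per the submitters' processing notes, the tools were Bowtie2, Trimmomatic 0.32, MACS2, DiffBind and DESeq2 and the builds hg19 and dm3 (fly). The role of each tool, duplicate removal and any use of an input or spike-in: not given in the sources used here. A change of all regions by 1 factor would therefore not be seen. Column names give group and letter, and letters were not tied to the labels' replicate numbers. Positions are printed as deposited, and their first base may be numbered 0 or 1.

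All regions entered 1 fit in edgeR 4.0.16 (R 4.3.3), tested by quasi-likelihood: TMM scaling, 3 groups, Benjamini-Hochberg adjustment, threshold 0.05; filterByExpr removed 0 regions. The code was tested on simulated data. SE is the log2 fold change divided by the square root of F. Libraries of a group differed by more than sampling noise (chi-square per degree of freedom 1.50 to 2.33) and were entered as separate libraries. That spread does not show that they came from separate cultures. Alternatives were median-of-ratios and total count scaling, DESeq2 1.42.0, no filter, a mean of at least 50 counts, only the 2 groups compared, a block by letter, a covariate for the 3 highest regions, and leaving out each library. Members and lists were chosen with earlier results of these data known. Regions named are all 11 members, their nearest neighbours and the 5 most alike regions, searched where the mean count reached 50. A list of other snoRNA hosts, mostly coding, was not analysed here, as it needs an hg19 annotation. Sequences are from RefSeq, GRCh38.p14.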

Additional observations from a re-analysis of the deposited data

How the results depend on the processing

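The count of member regions called at 2 h was 5 and stayed within 4 to 7 under scaling, filter, test, covariate and 2-group alternatives. Rises over all regions were 0.792% to 3.02% in these fits, against 2.22%. Leaving out 1 library gave 2 to 6 members (1.05% to 3.01% of all regions). At 4 h the count was 4, and it was 2 with total count scaling (0.990% of all regions), 2 with only the 2 groups compared (1.71%), 1 with DESeq2 (0.437%) and 1 to 2 with 1 library left out (0.734% to 2.59%), against 1.52%. A replicate block by column letter gave 9 members at 2 h (5.19% of all regions) and 7 at 4 h (4.45%). It added the higher-numbered SNHG3 region, the lower-numbered SNHG1 region, GAS5 and ZFAS1 at 2 h, and the lower-numbered SNHG1 region, SNHG8 and ZFAS1 at 4 h. For 4 h against 2 h the count of members called was 0 under every alternative run. The labels do not say what a letter shares, and 2 letters are too few to settle it: same-letter deviations from the group means correlated across regions with r of 0.22 (DMSO and 2 h), 0.28 (DMSO and 4 h) and 0.16 (2 h and 4 h). No called member changed sign under any alternative run. Among uncalled values against DMSO, only SNHG15 and, at 4 h, the higher-numbered SNHG3 region changed sign. For 4 h against 2 h, SNHG15, SNHG16, both SNHG1 regions and the lower-numbered SNHG3 region did. The cause of the lost and gained calls was not tested. The filter removed 0 regions, so its omission tested nothing. With the regions of a window summed, SNHG1 was called at both times (0.60 and 0.58), and SNHG3 at 2 h but not at 4 h (0.62 and 0.44).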
